A study of Arabidopsis thaliana with 6 samples.

Results

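This account follows 125 probe sets of the Arabidopsis ATH1 array, out of 22746 (0.550%), that read high on both arrays coded A3 and stayed near the control on both arrays of a second line. They were chosen from the deposited intensities, with values under 10 set to 10. Both A3 arrays had to read at least 50 and at least 1.5 times the higher control array. Both line 4 arrays had to lie between the lower control divided by 1.4 and the higher control times 1.4. A short list of genes was left out by name, but none of its members passed the bounds, so all 125 remained. These bounds fix how the probe sets differ from the control, and that difference is given below as a description with no test.

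The series asked, by its title, what Cdpk6 does in development. Each of the 6 arrays was hybridised with RNA of whole Col-0 seedlings from a pool of about 40 plants kept in a growth room at 22 °C with 16 h of light. The A3 pair is 2 arrays, of which A3-2 is labelled as a cdpk6-yfp transgenic line 1. Line 4 of the same transgene has 2 arrays, and the control, a line that carries an Aequorin transgene (aeq+), has 2. The labels used here do not state the promoter of the cdpk6-yfp transgene. Aequorin is a calcium-sensing reporter protein, and YFP is a fluorescent tag. Calcium-dependent protein kinases join a kinase domain to a calcium-binding domain and so respond to calcium directly.

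The labels of array A3-1 conflict. Its strain and genetic modification labels and its title code place it with the first transgenic line, while the rest of its title and its source name follow the control arrays. It is called array A3-1 here, and nothing below takes it as settled that it held transgenic RNA. Without A3-1, the bounds on A3-2 alone would keep 336 probe sets, and without A3-2 the bounds on A3-1 alone would keep 740. Log2 intensities of A3-1 and A3-2 correlated at 0.930 over the probe sets tested. A3-1 correlated with the controls at 0.891 to 0.898, and A3-2 with the controls at 0.938 to 0.944. The 2 arrays of line 4 correlated at 0.990, and those of the control at 0.983. The A3 pair thus differed between themselves more than either other pair did.

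Array medians lay between 44.2 and 46.4. The second control array had an average background of 142.62, where the other arrays had 89.78 to 95.64. The ratio of the 3' to the 5' actin control probe set was 4.67 and 4.17 on A3. It was 3.19 and 3.48 on line 4, and 4.27 and 4.30 on the control arrays. The part of these differences in the results below was not tested. The probe set for the large ribosomal RNA read 2189.3 on A3-1 and 1073.1 on A3-2, against 275.4 and 915.9 on line 4 and 282.1 and 277.2 on the control arrays. It was highest on the A3 pair but also high on 1 line 4 array, and its part in the results below was not tested. Of 22 tissue markers looked for, 3 of 6 root markers and 1 of 2 guard cell markers were named on the array. PYK10, a root beta-glucosidase, read 2178.5 and 2547.6 on A3, 2320.4 and 2237.7 on line 4, and 2929.8 and 2597.6 on the control arrays. The other 3 were dim. The root gene EXPA7 read 25.7 and 23.7 on A3, 30.8 and 29.9 on line 4, and 37.8 and 36.7 on the control arrays. The root gene EXPA18 read 50.5 and 36.8, 33.6 and 32.0, and 39.6 and 36.0 in that order. The guard cell gene FMA read 66.5 and 37.0, 30.5 and 26.5, and 34.5 and 39.1. EXPA7 was thus lower on both A3 arrays, while EXPA18 and FMA were highest on A3-1. None of the 6 shoot, 4 seed and 4 flower markers looked for was named on the array, so these tissues were not checked. In whole seedlings, fewer cells of a type and less RNA per cell cannot be told apart.

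Of the 125 probe sets, 52 matched 1 gene in the platform annotation, 1 matched several and 72 matched none in that table. Only 8 of the genes had a symbol of their own, and the others are called by their locus. The sets are spread over many kinds of protein. A placement by textbook role covered 33 genes, with 9 in the cell wall and secreted proteins, 9 in the membrane, cytoskeleton and signalling proteins, 7 in nuclear regulators and the cell cycle, 6 in enzymes of metabolism and 2 in RNA and ribosome. Plant cell walls are loosened and rebuilt by secreted hydrolases, esterases and glycosyl transferases as cells expand. Growth of seedling organs also draws on endoreduplication, in which cells copy their DNA without dividing.

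The median member read 217 on A3-1 and 162.8 on A3-2, against 88.5 and 86.5 on line 4 and 79.0 and 82.4 on the control arrays. The ratio of the lower A3 array to the higher control had a median of 1.70 and a maximum of 3.13, with 25 members at 2 or more and 39 under 1.6. The rule put both A3 arrays above both control arrays at all 125, where 34.2% of the 9986 probe sets with both A3 arrays at least 50 stood so. On the log2 scale the A3 mean minus the control mean had a median of 1.01 and a range of 0.64 to 3.06. Members with a ratio of 2 or more numbered 10 of 40 where the control mean was under 50, 11 of 52 between 50 and 150, and 4 of 33 at 150 or above, and the level bound of 50 alone demands a larger ratio of the dimmest. The same bounds with line 4 in the place of A3 kept 194 probe sets, and the mirror bounds, low on both A3 arrays with line 4 near the control, kept 278.

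**Figure D1:**
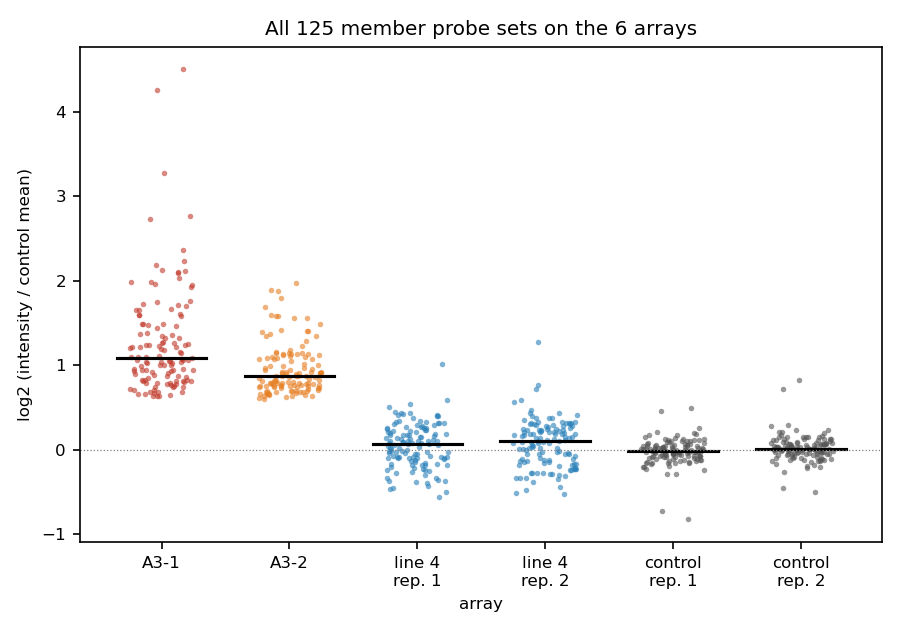
Log2 intensity of each of the 125 probe sets relative to its control mean (vertical axis), on the A3, line 4 and control arrays (horizontal axis), with 1 point a probe set and the median as a bar. The A3 points lie above those of line 4 and control because the rule chose them so, and those of A3-1 reach higher than those of A3-2.

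Nuclear regulators and cell cycle genes had a median ratio of 1.76, against 1.6 to 1.74 in the other role groups with over 2 members. The groups were written after the members were known, and the rule chose on this ratio. The level bound also demands a larger ratio of dim genes, so nothing is read from the order of the groups. AT1G69570, a Dof-type zinc finger transcription factor, read 160.1 and 64.8 on A3, 33.4 and 28.1 on line 4, and 8.7 and 27.3 on the control arrays. Its 2 A3 values and its 2 control values each differed more than 2-fold between arrays of the pair, so its size is poorly fixed. SIM, the SIAMESE inhibitor of cyclin-dependent kinases that promotes endoreduplication in trichomes, read 122.3 and 112.3 on A3, 40.6 and 41.1 on line 4, and 53.0 and 50.9 on the control arrays. All 3 pairs of SIM values were tight, with line 4 a little below the control. The basic helix-loop-helix factor bHLH121, a regulator of the response to iron deficiency, read 230.0 and 169.2 on A3, 104.1 and 102.2 on line 4, and 103.2 and 97.7 on the control arrays. The C2H2 zinc finger gene AT2G28200 read 89.9 and 68.5 on A3, 26.3 and 37.8 on line 4, and 36.7 and 37.9 on the control arrays. Its lower line 4 array lay just inside the bound. AT3G22220, a gene derived from a hAT transposon, read 56.3 and 57.5 on A3, 38.1 and 39.8 on line 4, and 31.4 and 32.0 on the control arrays. Here line 4 lay between the A3 pair and the control on every array. The MYB-type gene AT1G69580 read 54.5 and 52.3 on A3, 30.7 and 32.7 on line 4, and 29.4 and 32.6 on the control arrays, and was among the dimmest members.

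Cell wall and secreted proteins had a median ratio of 1.6, with a range of 1.51 to 1.90. AT1G29660, a GDSL-type esterase or lipase, had the largest ratio of the group and read 932.3 and 898.0 on A3, 540.8 and 542.0 on line 4, and 429.2 and 473.3 on the control arrays. Both line 4 arrays lay above both control arrays, within the bound. GH9B13, an endoglucanase of glycosyl hydrolase family 9, read 106.3 and 85.7 on A3, 53.2 and 54.4 on line 4, and 46.8 and 48.7 on the control arrays. TBL45, of the trichome birefringence-like family whose studied members acetylate wall polysaccharides, read 702.0 and 438.5 on A3, 293.9 and 300.8 on line 4, and 202.9 and 265.7 on the control arrays. In TBL45 the A3 arrays differed from each other by about as much as the lower of them exceeded the higher control. Genes of pectin modification were also members. The pectin methylesterase AT3G49220 read 517.7 and 340.9 on A3, 227.4 and 280.5 on line 4, and 214.4 and 223.5 on the control arrays. The pectin acetylesterase AT3G05910 read 492.7 and 427.8 on A3, 263.1 and 261.7 on line 4, and 284.0 and 278.2 on the control arrays. AT4G23820, a pectin lyase-like protein, read 545.4 and 586.3 on A3, 340.4 and 287.3 on line 4, and 354.6 and 343.1 on the control arrays. AT3G05910 and AT4G23820 were below the control on both line 4 arrays, while AT3G49220 was above it on both. AT5G11420, a wall protein with a DUF642 domain, read 1077.0 and 761.6 on A3, 459.4 and 479.3 on line 4, and 477.8 and 495.6 on the control arrays. The secreted CAP-domain protein AT5G66590 read 367.4 and 119.2 on A3, 75.8 and 82.1 on line 4, and 68.0 and 74.5 on the control arrays. Most of the distance of AT5G66590 from the control thus came from A3-1.

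Enzymes of metabolism had a median ratio of 1.74. AT1G04040, an acid phosphatase of the HAD superfamily, read 651.7 and 842.6 on A3, 318.8 and 340.2 on line 4, and 319.4 and 317.0 on the control arrays. The purple acid phosphatase AT1G25230 read 467.1 and 497.9 on A3, 180.2 and 182.1 on line 4, and 256.3 and 239.7 on the control arrays. Both phosphatases were brighter on A3-2 than on A3-1, which was the less common order among the members. AT2G47880, a CC-type glutaredoxin, read 66.6 and 53.1 on A3, 32.6 and 23.3 on line 4, and 22.2 and 26.0 on the control arrays. ALN, the allantoinase that opens the ring of allantoin in purine breakdown, read 130.4 and 74.4 on A3, 48.9 and 46.4 on line 4, and 41.9 and 45 on the control arrays. UGT85A4, a UDP-dependent glucosyl transferase, read 51.1 and 62.5 on A3, 32.4 and 27.5 on line 4, and 33.9 and 26.0 on the control arrays. UGT85A4 was the member closest to the bound of 50.

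Membrane, cytoskeleton and signalling proteins had a median ratio of 1.72. TET10, a tetraspanin, which is a small protein that spans the membrane and organises partner proteins within it, read 152.8 and 112.1 on A3, 58.6 and 53.3 on line 4, and 65.0 and 64.4 on the control arrays. AT2G35880, of the TPX2 family of microtubule-associated proteins, read 248.8 and 248.0 on A3, 92.9 and 94.9 on line 4, and 129.0 and 144.5 on the control arrays. In both genes every line 4 value lay below both control values. The RING-type gene AT1G49200, of a class with many ubiquitin ligases, read 87.9 and 73.1 on A3, 33.2 and 35.1 on line 4, and 34.7 and 37.8 on the control arrays. DRT100, a leucine-rich repeat protein, read 549.6 and 442.5 on A3, 187.4 and 212.4 on line 4, and 236.3 and 235.0 on the control arrays. For both genes the spread within each pair was smaller than the gap between the A3 arrays and the control.

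Both members placed under RNA and ribosome were alike on the A3 arrays. AT5G32450, an RNA-binding protein, read 748.4 and 726.9 on A3, 476.3 and 420.9 on line 4, and 419.0 and 444.5 on the control arrays. AT5G05210, a SURF6-like protein of ribosome biogenesis, read 55.3 and 55.0 on A3, 39.9 and 37.7 on line 4, and 36.0 and 28.3 on the control arrays.

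The 3 largest ratios among the 52 genes belonged to loci that were placed in no role group. AT5G03120 read 242.1 and 232.7 on A3, 99.7 and 97.0 on line 4, and 69.1 and 85.7 on the control arrays. AT3G05900, which resembles neurofilament proteins in sequence, read 295.6 and 262.1 on A3, 91.3 and 85.7 on line 4, and 79.0 and 96.7 on the control arrays. Their ratios were 2.72 and 2.71, and their A3 arrays lay close together. AT5G62280, a DUF1442 protein, read 405.2 and 78.0 on A3, 30.9 and 34.9 on line 4, and 29.2 and 15.5 on the control arrays. The next of these loci, AT2G42040, read 112.0 and 101.8 on A3, 44.7 and 34.3 on line 4, and 32.7 and 48.9 on the control arrays. AT5G62280 stood far apart on A3-1, while AT2G42040 was alike on both A3 arrays. The largest ratio of all, 3.13, belonged to a probe set that matched no gene in the table and was picked out after its values were seen. It read 166.6 and 133.1 on A3, 45.7 and 44.5 on line 4, and 34.3 and 42.5 on the control arrays.

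The other genes among the 24 with the largest ratios were nearer the bound. AT3G11290, AT3G42800, AT1G78110 and AT2G28780 were dim, between 51.4 and 78.1 on the A3 arrays and between 21.8 and 38.6 on the control arrays. AT2G44670 read 274.5 and 314.7 on A3, 179.1 and 183.6 on line 4, and 158.4 and 136.8 on the control arrays. AT5G26740 read 306.9 and 329.1 on A3, 156.4 and 193.8 on line 4, and 175.8 and 177.3 on the control arrays. AT2G47440, a tetratricopeptide repeat protein, read 462.7 and 573.5 on A3, 219.5 and 272.6 on line 4, and 202.1 and 242.1 on the control arrays. Line 4 thus stood above the control in AT2G44670, and its arrays overlapped those of the control in AT5G26740 and AT2G47440.

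**Figure D2:**
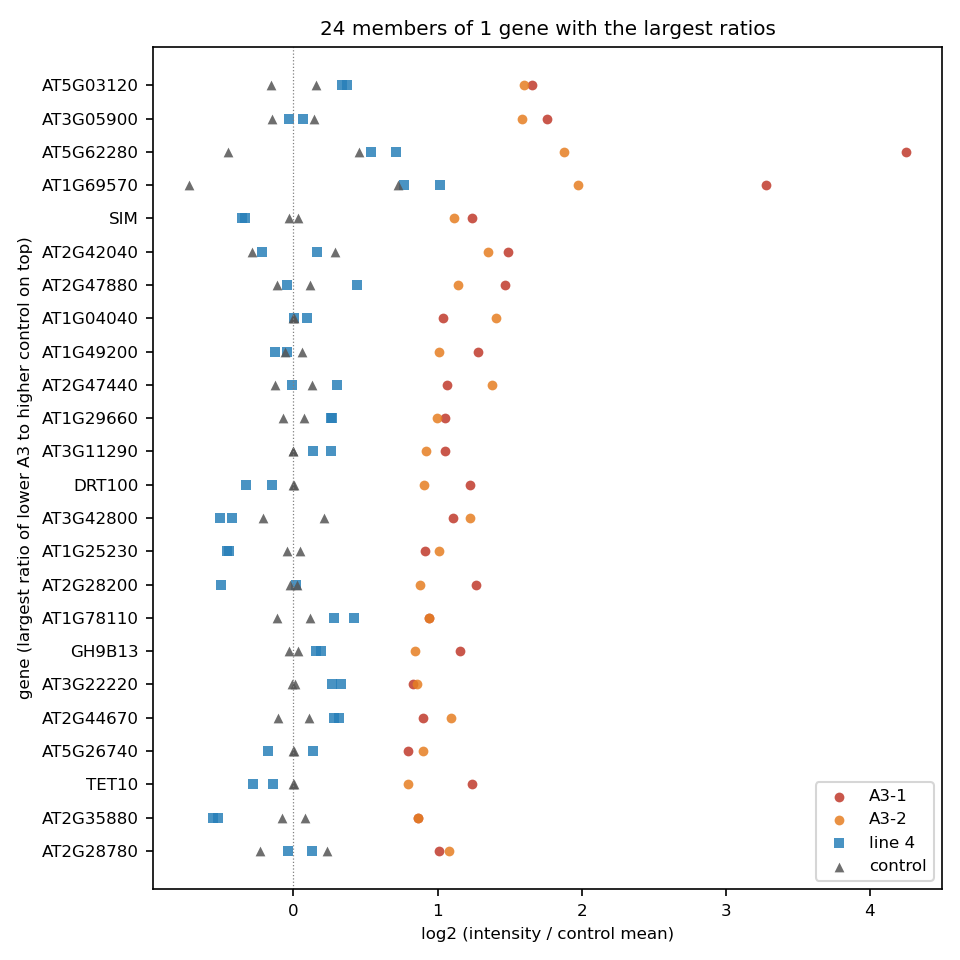
Log2 intensity relative to the control mean (horizontal axis) of the 24 members of 1 gene with the largest ratios (vertical axis), with circles for the A3 arrays, squares for line 4 and triangles for the control. AT5G62280 and AT1G69570 are far apart on the A3 arrays, at 405.2 and 78.0 and at 160.1 and 64.8, while SIM and AT2G35880 are close.

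Probe sets nearest to each bound are given next. AT3G01160 lay exactly on the ratio of 1.5, at 60.9 and 65.5 on A3, 42.1 and 44.8 on line 4, and 40.6 and 35.2 on the control arrays, and AT1G20430 had a ratio of 1.504. AT4G18970 and AT5G49100, both at a ratio of 1.496, stayed outside. CSLA03, a glucomannan synthase of the wall, stayed outside at 1.49, with 134.5 and 163.4 on A3, 120.5 and 110.3 on line 4, and 71.8 and 90.1 on the control arrays. At the level bound, PRA1.G2, AT5G57760 and TSC10B had a lower A3 value of 45.1 to 48.3 and stayed outside, next to UGT85A4, AT2G28780 and AT1G69580 inside at 51.1 to 52.3. At the line 4 bounds, AT1G71730 was inside with its higher line 4 array at 1.34 times the higher control, and AT1G71970, AT2G07360 and AT1G62500 were outside at 1.404 to 1.42. On the lower side, the lower control of AT2G28200 was 1.395 times its lower line 4 array, inside the bound, and MCCA, AT5G12050 and BZIP61 were outside at 1.405 to 1.46. AT5G12050 read 758.9 and 239.7 on A3, 44.1 and 50.2 on line 4, and 64.1 and 70.1 on the control arrays, and so was further from the control than most members.

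The rule put the same bounds on A3-1 and A3-2, so it did not set their order at a probe set. It did pick high values on both, and A3-1 alone passed the bounds at more probe sets than A3-2 alone (740 and 336), so the shares below are a description of chosen probe sets and are not free of the choice. Of the 125 probe sets, 91 were higher on A3-1 than on A3-2 and 34 were lower. The median difference A3-1 minus A3-2 was 0.14 on the log2 scale, against 0.01 over the 9986 probe sets with both A3 arrays at least 50. A3-1 was at least 1.5-fold higher at 28 members (22.4%), where 7.75% of the 9986 were. A3-2 was at least 1.5-fold higher at 0 members, where 6.96% of the 9986 were. These values have 1 array a side and carry no test. After quantile normalization 88 members were higher on A3-1, and 26 were so by at least 1.5-fold. Within 1.2-fold of each other lay 70 members (56.0%), close to the 54.8% of the 9986. The members that differed by at least 1.5-fold were thus all higher on A3-1.

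A3-1 was at least 2-fold higher at 11 members, where it was so at 208 of the 9986 probe sets. The largest difference, 2.93 on the log2 scale, belonged to a probe set that matched no gene in the table and read 742.7 and 97.2 on A3, 26.0 and 29.2 on line 4, and 38 and 28.4 on the control arrays. It was picked out after its values were seen. Among the genes, AT5G62280, AT5G66590 and AT1G69570 led, and AT4G28240, of a wound-responsive protein family, followed with 1021.1 and 568.6 on A3, 305.2 and 359.4 on line 4, and 340.9 and 281.5 on the control arrays. ALN was the fifth. At the other end, AT1G04040, AT2G47440 and UGT85A4 were higher on A3-2, with AT2G40815, a C2 lipid-binding domain protein, at 72.2 and 88.2 on A3, 49.2 and 59.2 on line 4, and 44.0 and 47.5 on the control arrays. The line 4 arrays differed by at least 1.5-fold at 3 members (2.4%), all higher on replicate 2, where 0.46% of the 9986 stood so. The control arrays differed so at 4 members, 2 in each direction (1.6% each). Of the 9986, 0.87% were that much higher on control replicate 1 and 1.09% on replicate 2.

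**Figure D3:**
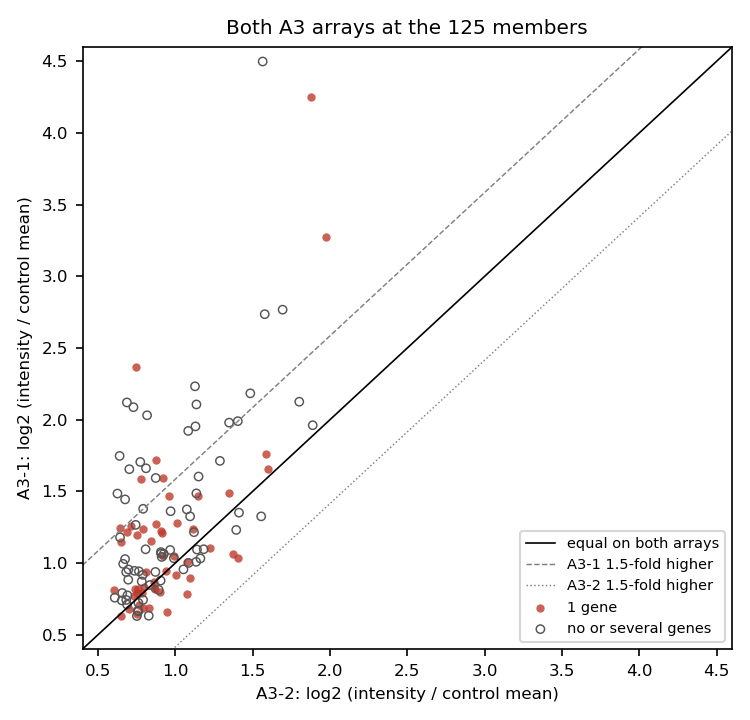
Log2 intensity relative to the control mean on A3-1 (vertical axis) against A3-2 (horizontal axis) for the 125 probe sets, filled where they matched 1 gene. Points above the solid line are higher on A3-1, 28 lie on or above the dashed line of 1.5-fold, and 0 lie below the dotted line of 1.5-fold the other way.

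Line 4 was held near the control by the rule but could lie on either side. The rule also favours probe sets with low control values, and these same control arrays are set against line 4 here, so nothing is read from the side on which line 4 lay. Its mean minus the control mean had a median of 0.06 over the members on the log2 scale, from -0.54 to 0.89. Both line 4 arrays lay above both control arrays at 46 members, where 27.5% of the 9986 probe sets did. Both lay below both control arrays at 23 members, where 34.3% of the 9986 did, and the arrays overlapped at 56. AT2G35880 had the lowest line 4 mean relative to the control, and AT1G69570 the highest.

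As a description, limma on all 6 arrays in 3 groups, with Benjamini-Hochberg adjustment over 13647 probe sets, called 87 of the 125 members higher in the A3 pair than in the control at an adjusted p under 0.05. Of all 13647, 1.14% were called higher and 2.65% lower, 3.78% in all. The rule used the same contrast, so nothing is read from that count. It was 0 without either control array, 15 and 16 without a line 4 array, and 113 and 122 without A3-1 and without A3-2, where the lone array was given the spread of the other pairs. With A3-1 counted as a control array, limma called 0 members and 0 probe sets in all, where 1175 had an unadjusted p under 0.05. For line 4 against the control, limma called 0 members in either direction, where 1.34% of all were called. In that contrast 14 members (11.2%) had an unadjusted limma p under 0.05, where 14.9% of all did. The rule held both line 4 arrays of each member near the control, so nothing is read from these line 4 counts. The labels do not say that the pools of a pair were separate cultures, so p-values measure only the spread between these pools.

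Relatives of the 6 members with a family or pathway of named genes were compared with the control in the same fit, since the rule did not choose them. No other probe set matched the gene of a member, so no second measure of a member was had. Of the trichome birefringence-like genes beside TBL45, 11 were tested and limma called 0 higher and 0 lower in A3, with a median difference of 0.18 on the log2 scale. Over all 13647 probe sets the median was 0.05, and limma called 1.14% higher and 2.65% lower. TBL36 came nearest, with 260.2 and 129.1 on A3, 98.8 and 120.1 on line 4, and 134.4 and 95.5 on the control arrays, a difference of 0.69 ± 0.34 (SE) at a limma adjusted p of 0.293. Of 5 family 9 hydrolases beside GH9B13, limma called 0, and their median was 0.06. Of 2 UGT85A genes beside UGT85A4 limma also called 0. UGT85A2 read 163.2 and 201.9 on A3, 208.4 and 201.7 on line 4, and 118.5 and 140.2 on the control arrays, a difference of 0.49 ± 0.15. UGT85A5 read 44 and 109.6 on A3, 77.3 and 92.2 on line 4, and 116.2 and 124.8 on the control arrays, a difference of -0.79 ± 0.39. The pair thus lay on opposite sides of the control, and neither passed (limma adjusted p of 0.144 and 0.295). Single A3 arrays decide the values of TBL36 and UGT85A5. TBL36 was at 0.19 without A3-1 and 1.2 without A3-2, and UGT85A5 at -0.14 and -1.45. UGT85A2 stayed above the control in both settings, at 0.65 and 0.34.

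The tetraspanins split. Of 7 tested beside TET10, limma called 0 higher and 2 lower in the A3 pair, where 1.14% and 2.65% of all 13647 were. TET8 read 621.7 and 933.2 on A3, 1534.1 and 1721.6 on line 4, and 1888.4 and 1745.5 on the control arrays, a fall of 1.25 ± 0.19 on the log2 scale with a limma adjusted p of 0.0233. TET9 read 14.6 and 16.9 on A3, 52.7 and 52.2 on line 4, and 34.2 and 32.4 on the control arrays, and its log2 difference was -1.08 ± 0.19 with a limma adjusted p of 0.0354. Both lay below every control value on both A3 arrays, opposite to TET10. TET7 read 274.2 and 301.8 on A3, 167.2 and 155.8 on line 4, and 207.3 and 208.9 on the control arrays. Its difference of 0.47 ± 0.12 did not pass (limma adjusted p of 0.0893). The difference was 0.54 without A3-1 and 0.40 without A3-2. A fit with a lone A3 array holds no spread within A3, so only the sizes are given. Neither TET8 nor TET9 passed when either control array or either line 4 array was left out (limma adjusted p of 0.0761 to 0.207), nor with A3-1 counted as control (0.897 and 0.822). TET9 also missed it with no filter on dim probe sets (0.0786).

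Beside bHLH121, 3 factors named in the same way were tested, and limma called 0 of them. The factors bHLH34, bHLH104 and bHLH115 are close relatives that take part in the iron response with bHLH121. bHLH34 read 98.0 and 83.5 on A3, 71.6 and 70.0 on line 4, and 65.7 and 67.1 on the control arrays, a difference of 0.45 ± 0.14 (limma adjusted p of 0.145). bHLH104 differed by 0.14 ± 0.15 and bHLH115 by -0.32 ± 0.19. Without A3-1 and without A3-2, bHLH115 was at -0.59 and -0.050, and bHLH104 at 0.0048 and 0.28. bHLH34 was at 0.56 without A3-2, which is its higher side, since A3-2 (83.5) read nearer the control than A3-1 (98.0) did. The single A3 arrays thus give different sizes for bHLH115 and bHLH104. BHLH101, an iron deficiency marker of another subgroup, was too dim for the fit and read 10.0 and 4.7 on A3, 48.2 and 44.7 on line 4, and 31.5 and 38 on the control arrays. BHLH101 was thus low on both A3 arrays and was not tested.

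In ureide breakdown, the pathway that follows allantoinase, AAH is the allantoate amidohydrolase and acts on the product of ALN. AAH read 260.2 and 95.8 on A3, 118.5 and 97.1 on line 4, and 97.9 and 89.8 on the control arrays. Like ALN it was high on A3-1, but on A3-2 it lay inside the range of the control, and its difference of 0.75 ± 0.42 did not pass (limma adjusted p of 0.349). It was 0.031 without A3-1 and 1.47 without A3-2. UGLYAH, a later enzyme of the pathway, read 39.4 and 43.3 on A3, 37.3 and 43.6 on line 4, and 41.8 and 41.3 on the control arrays, with no gap between the groups.

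The wider gene lists, matched by patterns on symbols and descriptions, held few members. Some members placed above by role, such as SIM, GH9B13 and TBL45, were not caught by the patterns. The counts below stand beside 1.14% called higher and 2.65% called lower by limma over all 13647 probe sets. The list of transcription factors held bHLH121, and of its other 26 tested genes limma called 1 higher and 3 lower in A3. The list of secondary metabolism held UGT85A4, with 0 higher and 1 lower among the other 29. Of 33 genes of a cell wall list, none of them members, limma called 1 higher and 2 lower. This list held none of the members placed above in the cell wall group, so its counts leave out genes that were high. CSLA03, just outside the rule, was the higher one, by 0.88 ± 0.17 with a limma adjusted p of 0.0458. XTH18, a xyloglucan-modifying enzyme, read 97.9 and 63.7 on A3, 271.9 and 237.7 on line 4, and 183.7 and 209.8 on the control arrays, a fall of 1.31 ± 0.22 with a limma adjusted p of 0.0294. EXLA3, an expansin-like gene, read 16.8 and 25.8 on A3, 48.7 and 54.9 on line 4, and 59.6 and 58.9 on the control arrays, a fall of 1.51 ± 0.24 with a limma adjusted p of 0.0246. All 3 lost their calls when either control array or either line 4 array was left out, with limma adjusted p of 0.0860 to 0.268. With no filter on dim probe sets CSLA03 and EXLA3 also missed the threshold (0.0680 and 0.0509). Of 9 genes in a cell cycle and chromatin list, which did not hold SIM, limma called 0 in either direction.

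By the order of genes in the TAIR10.1 assembly, 2 pairs of members were next to each other on a chromosome, among the 52 genes. One pair was AT3G05900 and the pectin acetylesterase AT3G05910, and the other was the Dof factor AT1G69570 and the MYB-type factor AT1G69580. Members of a pair differed in size, with ratios of 2.71 and 1.51 in the first and 2.37 and 1.604 in the second. Of the protein-coding genes next to a member that were not members themselves, 45 probe sets were measured and 33 tested. The 4 members of the adjacent pairs were left out of these counts. Genes that the rule chose as high are thus missing, and nothing is read from the balance of calls. Among the 33, limma called 1 higher and 3 lower in the A3 pair, where 1.14% and 2.65% of all 13647 were. The median difference of the 33 was 0.13 on the log2 scale. AT3G19850, next to bHLH121, read 105.9 and 111.4 on A3, 31.8 and 37.9 on line 4, and 56.2 and 63.9 on the control arrays, a rise of 0.86 ± 0.16 with a limma adjusted p of 0.0407. It stayed outside the members because line 4 lay below the lower bound.

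The 3 that fell stood beside members that were high. WRKY53, a transcription factor of leaf senescence, lies next to AT4G23820 and read 24.2 and 21.6 on A3, 117.5 and 109.5 on line 4, and 86.9 and 83.2 on the control arrays, a fall of 1.89 ± 0.14 with a limma adjusted p of 0.00221. COR47, a dehydrin induced by cold, lies next to AT1G20430 and read 698.9 and 1103.5 on A3, 1336.9 and 1360.5 on line 4, and 2059.1 and 1773.5 on the control arrays, a fall of 1.12 ± 0.21 with a limma adjusted p of 0.0431. AT3G22210, next to AT3G22220, fell by 0.65 ± 0.12 with a limma adjusted p of 0.0355. The A3 values of these genes lay below every control value, on the opposite side from the neighbouring member. WRKY53 missed the threshold when either control array was left out (limma adjusted p of 0.0581 and 0.0573). COR47, AT3G22210 and AT3G19850 did so when either control or either line 4 array was left out, at 0.107 to 0.267, and when dim probe sets were kept, at 0.0522 to 0.0788. AT1G29670, next to the esterase AT1G29660, read 613.8 and 1238.3 on A3, 1009.7 and 1089.0 on line 4, and 1131.3 and 1128.8 on the control arrays. It was low on A3-1 only, where AT1G29660 was high on both A3 arrays, and its difference of -0.37 ± 0.30 did not pass (limma adjusted p of 0.497). It was 0.13 without A3-1 and -0.88 without A3-2.

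**Figure D4:**
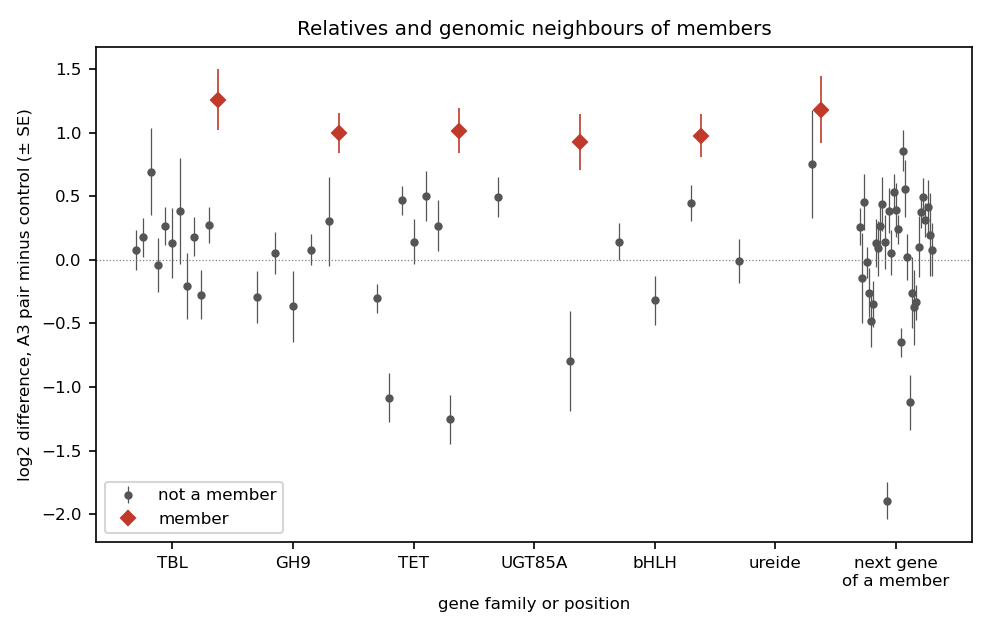
Log2 difference of the A3 pair minus the control with its SE (vertical axis) for tested relatives and genomic neighbours (circles) and for the member of each family or pathway (diamonds), by family or position (horizontal axis). The members lie near 1 because the rule chose them so, while the relatives scatter around 0 and WRKY53 lies lowest at -1.89.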

How the data were processed

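Total RNA was labelled with biotin and hybridised to ATH1 arrays, per the labels' protocols. The authors deposited 1 intensity per probe set and array on a linear scale. How probes were combined is not given in the sources used. Of 22810 probe sets 64 control sets were left out. The members were found with the bounds given above, and a value exactly on a bound counted as inside. For the fit, values of 0 (126 in all) were raised to 0.1, intensities were taken to log2, and the lowest 40% of probe sets by mean over the 6 arrays were left out, which kept 13647, all 125 members among them. limma 3.58.1 in R 4.3.3 (lmFit and eBayes with a variance trend) used 3 groups by title code, with 3 residual degrees of freedom. It was tested on simulated data only with the same spread on all arrays, where the A3 pair here differed more than the other pairs. Precision is limited by having 2 arrays a group.

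Genes were named from the platform annotation, with newer symbols from TAIR10.1 gene records, which served for names and neighbours only. The files name no build, so no coordinates are printed, and promoter motifs were not analysed here. The members and gene lists were chosen with earlier results of these data known. Role groups and families were written after the members were known, and 3 list patterns that had matched wrong words or missed a letter case were corrected after the data were seen. Named are the 24 genes with the largest ratio, up to 4 members a list, the 5 at each end of the A3-1 to A3-2 ratio and the 3 nearest each side of a bound. Other members, relatives and neighbours were chosen after their values were seen. Alternatives were quantile normalization, other floors and filters, no variance trend, a replicate block, each array left out, and A3-1 counted as control.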

Additional observations from a re-analysis of the deposited data

How the results depend on the processing

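The number of members was 125, and it was 25 with a ratio bound of 2, 119 after quantile normalization (109 of them shared), and 139 to 740 when 1 array at a time was left out, the largest without A3-2. Probe sets called by limma in the A3 pair against the control numbered 516, with 28 to 3838 when 1 array was left out and 0 with A3-1 counted as control. For line 4 the call count was 183, with 18 to 2087 when 1 array was left out and 88 with A3-1 as control. Of the members 87 were called, with 0 to 122 when 1 array was left out and 0 with A3-1 as control. Replicate numbers did not pair the samples (correlations of deviations 0.00, -0.07 and 0.01), and the replicate block gave 373, 132 and 60 calls for these 3 counts.

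With A3-1 counted as control, differences changed sign for AT5G66590 (-0.045), TBL36 (-0.21), AAH (-0.46), bHLH104 (-0.089), UGT85A5 (0.35) and AT1G29670 (0.43). With 1 A3 array left out, that of AT1G29670 ran between -0.88 and 0.13, the higher without A3-1. The cause was not tested. Of the relatives and neighbours called, WRKY53 lost its call when either control array was left out (adjusted p of 0.0581 and 0.0573) and with A3-1 as control (0.679). TET8, TET9, COR47, AT3G22210, AT3G19850, CSLA03, XTH18 and EXLA3 lost theirs in those settings and when either line 4 array was left out. Without the filter on dim probe sets TET9, COR47, AT3G22210, AT3G19850, CSLA03 and EXLA3 lost theirs (adjusted p of 0.0509 to 0.0788), and without the variance trend COR47, AT3G22210 and CSLA03 (0.0584 to 0.0660). Quantile normalization ended that of CSLA03 (0.0544). With the replicate block TET9, COR47, AT3G22210, AT3G19850 and CSLA03 were at 0.0546 to 0.0709. With 2 arrays a group, all these calls have limited precision.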
